A study of Homo sapiens with 9 samples.

Results

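The genes described here are 40 genes that carry cells from G2 through mitosis: the M-phase kinases and cyclins, the CDC25 phosphatases that switch CDK1 on, the spindle checkpoint, the chromosomal passenger complex, regulators of the anaphase-promoting complex, kinesins, centromere and spindle proteins, cytokinesis factors, TOP2A and MKI67, and the transcription factors FOXM1 and MYBL2. They were chosen by name, as genes of this pathway, with earlier results of these data known. Their symbols were looked up in a table of 60683 genes, where all 40 were found. RNA-seq libraries came from Hep3B cells, a human liver cancer line grown in culture, after 24 hours with vehicle (DMSO) at 20% O2, with vehicle at 1% O2, or with the hypoxia-inducible factor inhibitor 32-134D at 1% O2. Each group had 3 libraries, labelled as biological replicates seeded on multiwell plates, and it is not stated whether they came from separate passages, so the p-values measure the spread between these libraries. The labels give no dose of 32-134D, and no library of 32-134D at 20% O2 was analysed here. The comparisons ask which G2/M genes differed under hypoxia (vehicle at 1% against vehicle at 20% O2) and with the inhibitor (32-134D against vehicle, both at 1% O2). Both share the vehicle libraries at 1% O2, so opposite directions in the 2 comparisons are not independent of each other.

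As background, cyclin B bound to CDK1 drives entry into mitosis, WEE1-family kinases hold that complex inactive, and CDC25 phosphatases release it. The spindle checkpoint then delays anaphase until every kinetochore is attached, after which CDC20 and the anaphase-promoting complex destroy cyclin B and securin. Most of these genes are transcribed late in the cell cycle through promoters with a CCAAT box, bound by NF-Y, and a cell-cycle homology region (CHR), bound by MuvB complexes that recruit MYBL2 and FOXM1 to activate them or E2F4 and p130 to repress them. In bulk RNA, fewer cells in G2/M and less RNA of a gene per cell cannot be told apart.

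The promoters show what these genes share in sequence. A 300-base window per gene, 250 bases before and 50 from the annotated start, was available from RefSeq on GRCh38.p14 for 33 of the 40 genes, all but AURKA, BUB3, TTK, BIRC5, TPX2, UBE2C and FOXM1. A CCAAT box, in either strand, was in 26 of the 33 (78.8%), against 35.7% of 27305 promoters in the RefSeq table and 36.2% of those of genes tested here. The CHR letters TTTGAA or TTTAAA, on either strand, were also in 26 (78.8%), against 24.3% of all promoters and 16.5% of those of genes tested, and both motifs together were in 22 (66.7%), against 9.49% and 6.63%. DNA replication genes, which peak earlier in the cycle, held the CHR letters in 5 of 37 promoters (13.5%). The core of the hypoxia response element (ACGTG or GCGTG, either strand) was in 21 of the 33 (63.6%), against 48.4% of all promoters and 60.6% of those of genes tested. The E2F core GGCGC was in 27 (81.8%), against 48.3% and 71.1%. A match is a run of letters and was not tested for binding.

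The 250 bases before the start are printed 5′ to 3′ for 5 genes that stand for the patterns below: CDK1 and NEK2, the genes raised most in hypoxia, CDC20, which was not called, and CENPF and MKI67, which were lowered. Capitals mark CCAAT (or its reverse complement ATTGG) and TTTGAA or TTTAAA (or the reverse complement TTCAAA). In MKI67 the last TTTGAA overlaps an ATTGG by 1 letter.
CDK1: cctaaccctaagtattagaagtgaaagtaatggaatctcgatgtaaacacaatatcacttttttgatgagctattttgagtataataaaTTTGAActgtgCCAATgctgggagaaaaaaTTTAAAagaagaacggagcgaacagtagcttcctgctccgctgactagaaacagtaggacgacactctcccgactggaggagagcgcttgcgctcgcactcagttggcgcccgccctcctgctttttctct
NEK2: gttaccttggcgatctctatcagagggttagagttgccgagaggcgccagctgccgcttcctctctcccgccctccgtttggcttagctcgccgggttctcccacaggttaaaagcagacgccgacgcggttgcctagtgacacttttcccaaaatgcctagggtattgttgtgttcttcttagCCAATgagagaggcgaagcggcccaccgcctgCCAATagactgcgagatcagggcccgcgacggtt
CDC20: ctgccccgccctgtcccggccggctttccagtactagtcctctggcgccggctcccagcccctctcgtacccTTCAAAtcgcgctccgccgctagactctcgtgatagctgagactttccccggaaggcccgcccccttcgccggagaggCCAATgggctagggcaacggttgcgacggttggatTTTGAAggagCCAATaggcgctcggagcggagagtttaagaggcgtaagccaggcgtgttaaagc
CENPF: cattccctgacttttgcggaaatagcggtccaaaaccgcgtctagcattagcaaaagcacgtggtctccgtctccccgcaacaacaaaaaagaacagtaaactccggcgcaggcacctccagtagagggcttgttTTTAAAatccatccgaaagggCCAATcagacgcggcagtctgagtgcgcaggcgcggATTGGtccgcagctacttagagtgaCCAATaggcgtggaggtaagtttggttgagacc
MKI67: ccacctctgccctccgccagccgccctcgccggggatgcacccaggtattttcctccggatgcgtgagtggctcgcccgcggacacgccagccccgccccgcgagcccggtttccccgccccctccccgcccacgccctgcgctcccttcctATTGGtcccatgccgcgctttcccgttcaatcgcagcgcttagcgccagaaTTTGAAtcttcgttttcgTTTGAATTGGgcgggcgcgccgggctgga

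These windows lie at chr10:60778081-60778330 on the plus strand for CDK1, chr1:211675622-211675871 on the minus strand for NEK2, chr1:43358731-43358980 on the plus strand for CDC20, chr1:214602945-214603194 on the plus strand for CENPF and chr10:128126424-128126673 on the minus strand for MKI67 (GRCh38). NEK2 held a pair of CCAAT boxes and no CHR letters, and CENPF held 4 CCAAT boxes in its whole window. CENPE, whose level differed most, had no CCAAT and 3 TTTAAA runs. Grouped by the hypoxia calls given below, 2 of 7 promoters of raised genes held both motifs, 2 of 4 of lowered genes and 18 of 22 of genes not called. The groups are small, and these shares are a description. In the windows searched, CDC25B, CDC25C and MYBL2 held neither motif. The CDC25C window lies at the outermost annotated end of that gene. Promoters at other starts of a gene, and spellings of the CHR other than TTTGAA and TTTAAA, were not searched. An absent motif, and the shares by hypoxia call, therefore hold for these windows and letters only.

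Total counts ran from 6013980 to 40549699 per library, and levels are given as CPM (counts over the scaled library total) after TMM scaling, a correction for the make-up of each library. A gene was called when edgeR's quasi-likelihood test over all 22672 genes tested gave a Benjamini-Hochberg adjusted p below 0.05 and the fold change was above 1.5, and errors of fold changes are standard errors on the log2 scale. All 12 hypoxia-inducible control genes were called higher in hypoxia and lower with 32-134D. ALB, a hepatocyte product, was at 9284, 9536 and 8116 CPM on average in the 3 groups. Of 10 hepatocyte markers, AFP and APOB were called lower in hypoxia. With 32-134D, APOB was called higher and FGA, FGB, TF and TTR lower. CD3E, PTPRC, VWF, CDH5, COL3A1, DCN and ACTA2, markers of immune, endothelial and stromal cells, were below the filter of 10 counts over all libraries. COL1A1, COL1A2, LYZ and PECAM1 passed it and were called lower in hypoxia and higher with 32-134D. The 12 such markers summed to between 34.1 and 40.9 CPM with vehicle at 20% O2, 11.8 and 12.99 with vehicle at 1% O2 and 25.5 and 30.1 with 32-134D, mostly LYZ, and their part in the results was not tested. Replicate 3 of 32-134D stood apart: the median G2/M gene lay at -0.34 from its all-library mean there on the log2 scale, against -0.05 and -0.06 in replicates 1 and 2, and the share of counts from 10 hepatocyte markers was 1.22%, against 1.88% and 1.87%. Counts of called genes with 32-134D are therefore also given without it where they differ. Without it, FGA, FGB, TF and TTR were not called lower and COL1A1 was not called higher.

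All 40 genes passed the filter. Per exon length (RPKM, CPM over kilobases of exon), the highest levels with vehicle at 20% O2 were those of TPX2 (129.0), which recruits Aurora A to the spindle, MYBL2 (105.4), TOP2A (87.2), UBE2C (79.2) and CDC20 (72.7). The lowest were NUSAP1 (0.578), PRC1 (3.77) and HMMR (4.19). Of the exon bases of NUSAP1, 62.2% are shared with another annotated gene on the same strand, and of those of PRC1, 57.6%, so both levels are uncertain. CDK1 itself ranked among the lower genes at 16.6 RPKM, under CCNB1 at 63.3, with vehicle at 20% O2.

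G2/M genes were called in both directions in hypoxia, at shares near or below those of all genes tested. At 1% O2, 8 of the 40 rose (CDK1, NEK2, CCNA2, TTK, ANLN, MAD2L1, MYBL2 and CDC25C) and 4 fell (CENPE, CENPF, MKI67 and CDC25B), while 28 were not called. Over all genes tested, 19.5% were called higher and 20.3% lower, so the share of raised G2/M genes, 20%, was near the background and the share lowered, 10%, was below it. With total library size the share raised was 5%, against 13.6% of all genes, and with trends over exon length and GC content removed it was 7.5%, against 16.6%. By the adjusted p alone, without the fold threshold, 17 were higher and 7 lower, against 27.9% and 25.6% of all genes. The median log2 fold change of the 40 was 0.13, against 0.001 over all genes tested. The offset of 0.13 was small and depended on the genes and the depth used. With protein-coding genes only, the median of the 40 was 0.039, against 0.018 over the genes tested. After thinning every library to the depth of the smallest, it was 0.041 against -0.050. Where each library had 10 or more counts of a gene, it was 0.067 against -0.0085. Without replicate 1 of 32-134D, which enters the joint fit, it was 0.076 against -0.041, an offset of 0.12. With total library size as the scaling, the median of the 40 became -0.083. That scaling moved the median of all genes by -0.21, and the offset was 0.13. With total library size 2 genes were higher (CDK1 and NEK2) and the same 4 lower, and over all genes 34.5% of the calls were higher, against 49.0% with TMM.

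**Figure D1:**
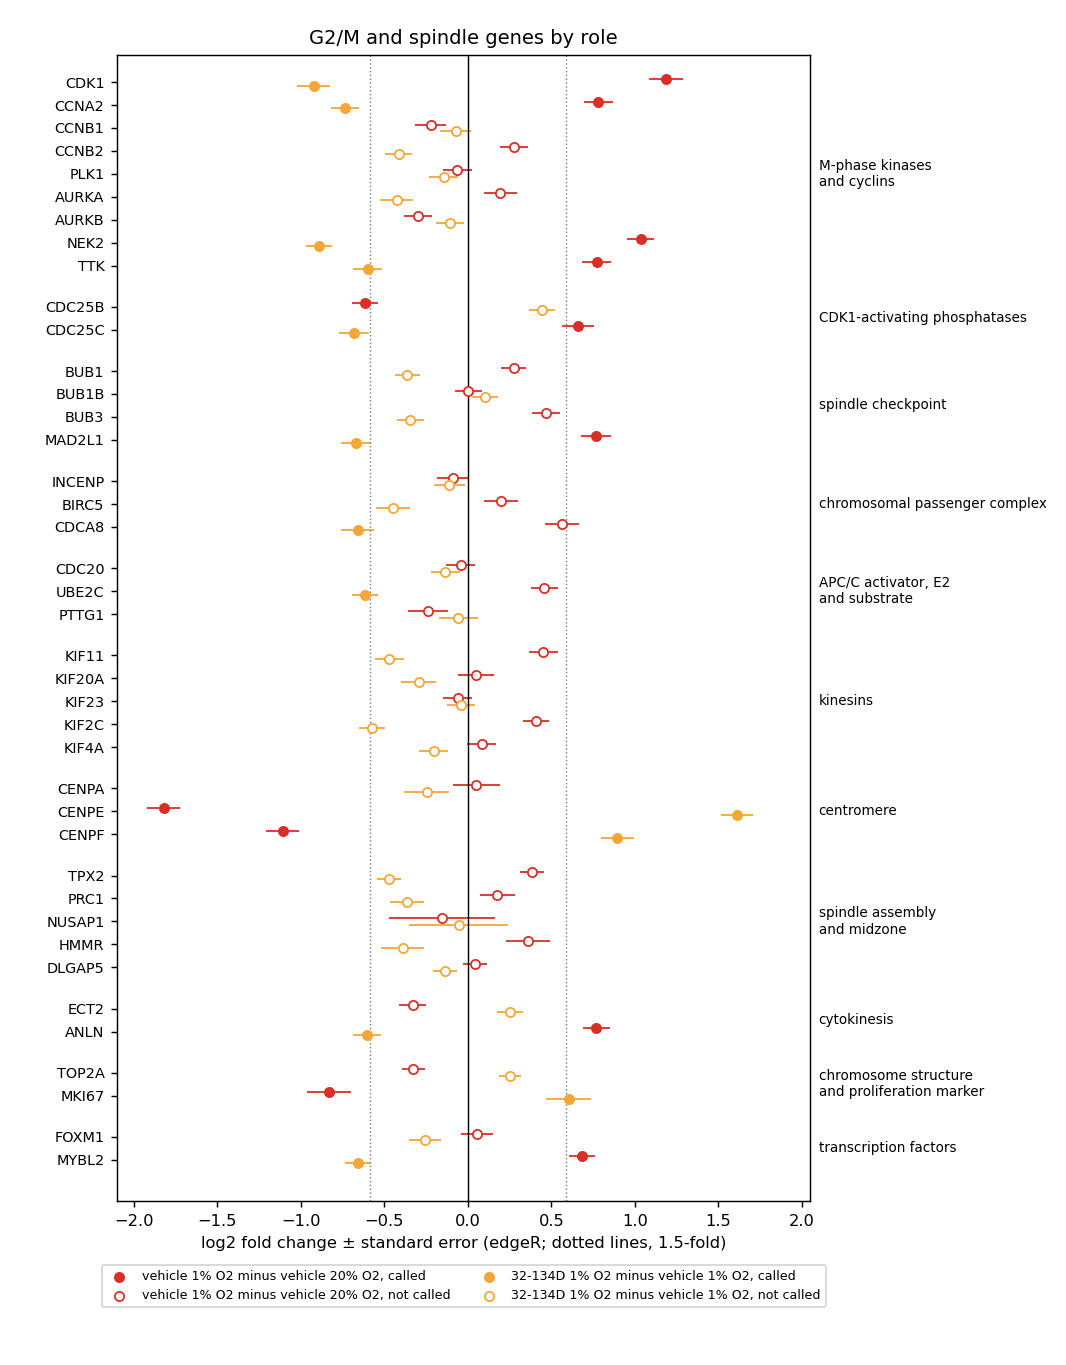
Log2 fold change with its standard error for each of the 40 genes, grouped by role, in hypoxia (red, vehicle at 1% minus vehicle at 20% O2) and with 32-134D (orange, 32-134D minus vehicle at 1% O2), where filled points were called and dotted lines mark 1.5-fold. CENPE lies farthest out in both comparisons, at -1.82 and 1.61, and most open points lie inside the dotted lines.

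Among the M-phase kinases and cyclins, 4 of 9 rose in hypoxia and none fell at the fold threshold. CDK1, the kinase that drives mitotic entry (ENSG00000170312, chr10:60778331-60794852), was at 78.02, 56.2 and 61.8 CPM with vehicle at 20% O2, 151, 146 and 152 with vehicle at 1% O2, and 83.6, 80.02 and 72.8 with 32-134D. Every library of vehicle at 1% O2 lay above every other, a 2.29-fold difference from 20% O2 with a log2 fold change of 1.19 ± 0.10 (edgeR adjusted p = 1.48e-07). NEK2, a kinase that splits the centrosomes, was at 53.8, 45.1 and 52.95 CPM with vehicle at 20% O2, 107, 104 and 102 with vehicle at 1% O2, and 57.3, 58.1 and 53.4 with 32-134D. It was 2.06-fold higher in hypoxia, again with no overlap, with a log2 fold change of 1.04 ± 0.08 (edgeR adjusted p = 4.87e-08).

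CCNA2, the cyclin of S phase and early mitosis, was at 99.1, 84.5 and 91.97 CPM with vehicle at 20% O2, 162, 155 and 158 with vehicle at 1% O2, and 102, 98.8 and 84.2 with 32-134D. Its hypoxic vehicle libraries lay above all others, with a log2 fold change of 0.78 ± 0.09 (edgeR adjusted p = 1.76e-06). TTK, the kinase that starts the spindle checkpoint signal, was at 52.5, 42.5 and 47.99 CPM with vehicle at 20% O2, 83.8, 77.9 and 83.8 with vehicle at 1% O2, and 56.7, 55.4 and 49.7 with 32-134D, and its log2 fold change was 0.77 ± 0.09 (edgeR adjusted p = 2.63e-06). Neither CCNA2 nor TTK was called with total library size or once trends over exon length and GC content were removed.

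The cyclins did not move together. CCNB1, the cyclin B that binds CDK1, was at 172, 158 and 156 CPM with vehicle at 20% O2, 147, 132 and 138 with vehicle at 1% O2, and 146, 137 and 112 with 32-134D, so its levels with vehicle at 1% O2 lay below those at 20% O2 without passing the test (log2 fold change -0.22 ± 0.09 (edgeR adjusted p = 0.0548)). CCNB2, its paralog, was at 94.4, 83.5 and 82.9 CPM with vehicle at 20% O2, 104, 105 and 106 with vehicle at 1% O2, and 85.7, 80.4 and 70.7 with 32-134D, with a log2 fold change of 0.28 ± 0.08 (edgeR adjusted p = 0.011), under the fold threshold. The ratio of CCNB1 to CCNB2 counts within a library, which no scaling between libraries can change, was 1.86 ± 0.03 (SD, n = 3) with vehicle at 20% O2, 1.32 ± 0.08 with vehicle at 1% O2 and 1.67 ± 0.07 with 32-134D, and the groups did not overlap. With 3 libraries against 3, an exact permutation test cannot give a two-sided p below 0.1, so no test is given for such ratios. PLK1, the polo kinase of mitotic entry and exit, averaged 203 ± 4.26, 194 ± 5.28 and 176 ± 24.1 CPM (SD, n = 3) in the 3 groups and was not called in any comparison. An antisense gene covers 11.6% of the exon bases of PLK1.

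The Aurora kinases differed in the ratio of their counts. AURKA, which builds the spindle poles, was at 117, 104 and 109.6 CPM with vehicle at 20% O2, 137, 121 and 121 with vehicle at 1% O2, and 106, 96.8 and 79.03 with 32-134D. AURKB, the kinase of the chromosomal passenger complex, was at 121, 120.0 and 115 CPM with vehicle at 20% O2, 95.8, 97.8 and 95.9 with vehicle at 1% O2, and 96.3, 95.2 and 77.2 with 32-134D. In hypoxia the log2 fold change was 0.19 ± 0.10 (edgeR adjusted p = 0.115) for AURKA and -0.30 ± 0.08 (edgeR adjusted p = 0.00729) for AURKB, and neither was called. Within a library, the ratio of AURKA to AURKB counts was 0.928 ± 0.055 with vehicle at 20% O2, 1.31 ± 0.11 with vehicle at 1% O2 and 1.05 ± 0.05 with 32-134D (SD, n = 3), and the groups did not overlap.

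The CDK1-activating phosphatases went in opposite directions in hypoxia, both past the thresholds. CDC25B, which starts the activation of CDK1 at the centrosome, was at 119, 129 and 131 CPM with vehicle at 20% O2, 88.1, 79.4 and 79.1 with vehicle at 1% O2, and 112, 105 and 119 with 32-134D. CDC25C, which acts in the nucleus at mitotic entry, was at 19.9, 19.3 and 19.9 CPM with vehicle at 20% O2, 33.05, 29.9 and 30.4 with vehicle at 1% O2, and 19.9, 20.6 and 17.6 with 32-134D. CDC25B fell, with a log2 fold change of -0.62 ± 0.08 (edgeR adjusted p = 6.56e-06), and CDC25C rose, with 0.66 ± 0.09 (edgeR adjusted p = 2.5e-05). The ratio of CDC25B to CDC25C counts dropped from 6.41 ± 0.36 (SD, n = 3) to 2.64 ± 0.03 in hypoxia and was 5.82 ± 0.84 with 32-134D, so the hypoxic vehicle libraries lay below all others. The call of CDC25B held in every alternative setting run at the 1.5-fold threshold, and that of CDC25C was lost in 6 of 12.

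**Figure D2:**
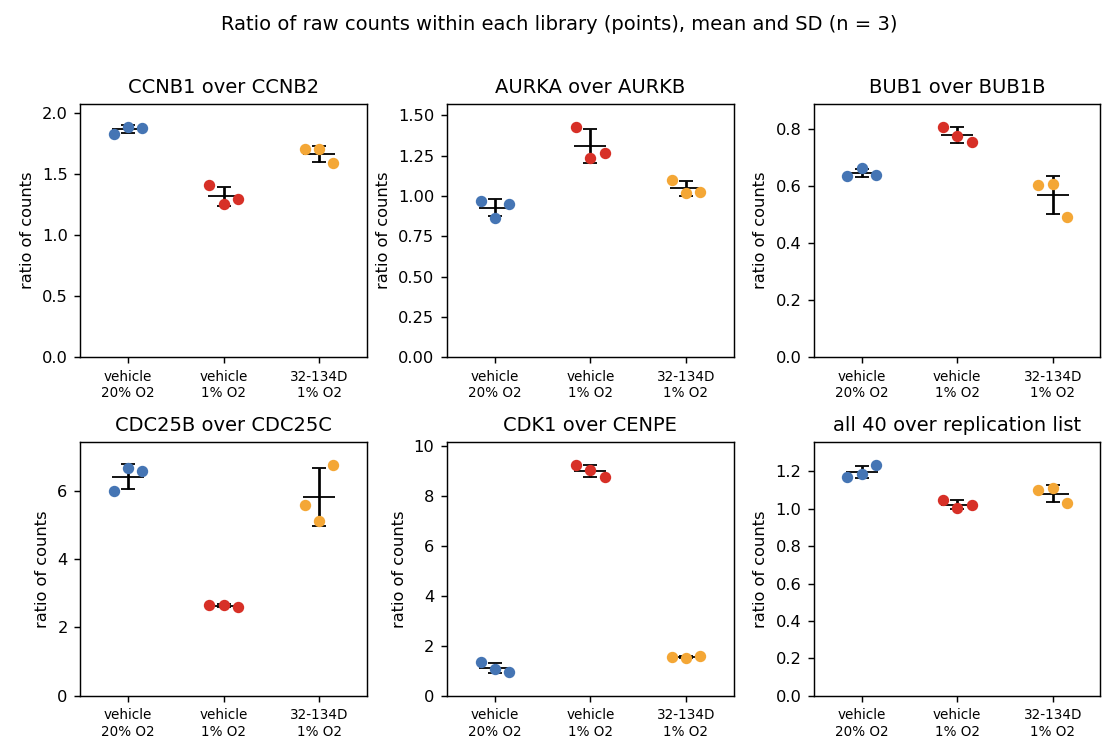
Ratio of raw counts of one gene to another within each library (points), with mean and SD (n = 3), for 4 paralog pairs, for CDK1 over CENPE (a pair chosen after its values were seen) and for the 40 genes summed over a 42-gene DNA replication list. CDK1 over CENPE was 1.124 and 1.56 on average at 20% O2 and with 32-134D and 9.02 in hypoxic vehicle libraries.

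In the spindle checkpoint, MAD2L1, which inhibits CDC20, was at 57.9, 45.9 and 45.3 CPM with vehicle at 20% O2, 88.6, 82.8 and 82.7 with vehicle at 1% O2, and 53.95, 53.4 and 52.5 with 32-134D. It rose in hypoxia, with a log2 fold change of 0.77 ± 0.09 (edgeR adjusted p = 4.71e-06), a call kept in 8 of 12 settings that left no library out. BUB1B, another part of the inhibitor, was at 117, 122 and 132 CPM with vehicle at 20% O2, 127, 118 and 126 with vehicle at 1% O2, and 126, 126 and 147 with 32-134D, which gave one of the 3 smallest hypoxia differences among the 40, 0.00 ± 0.08 (edgeR adjusted p = 0.992). Its paralog BUB1, the kinetochore kinase, was at 74.4, 80.4 and 84.2 CPM with vehicle at 20% O2, 103, 91.5 and 95.1 with vehicle at 1% O2, and 76.3, 76.4 and 72.2 with 32-134D, with a log2 fold change of 0.27 ± 0.07 (edgeR adjusted p = 0.00612). BUB3 had 0.47 and passed the adjusted p but not the fold threshold. In the chromosomal passenger complex, no gene was called in hypoxia: the log2 fold changes were -0.09 for INCENP, 0.20 for BIRC5 (survivin) and 0.56 for CDCA8 (borealin).

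The regulators of anaphase showed small differences in hypoxia. CDC20, the activator of the anaphase-promoting complex, was at 153, 146 and 145 CPM with vehicle at 20% O2, 143, 143 and 145 with vehicle at 1% O2, and 142, 139 and 110.1 with 32-134D. Its vehicle groups overlapped, and its log2 fold change was -0.04 ± 0.09 (edgeR adjusted p = 0.704). UBE2C, the ubiquitin-conjugating enzyme of the complex, had a log2 fold change of 0.46 ± 0.08 (edgeR adjusted p = 0.000175), under the fold threshold. PTTG1 (securin) was at 58.8, 43.2 and 41.03 CPM with vehicle at 20% O2, 39.4, 39.6 and 42.4 with vehicle at 1% O2, and 40.5, 40.8 and 35.2 with 32-134D, with -0.24 ± 0.12 (edgeR adjusted p = 0.108). Of the 5 kinesins, none was called: KIF11, which pushes the spindle poles apart, and KIF2C, which removes tubulin from microtubule ends, passed the adjusted p alone at 0.45 and 0.41, while KIF20A, KIF23 and KIF4A lay between -0.06 and 0.08.

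The largest hypoxia difference of the 40 was a decrease at the centromere. CENPE, a kinetochore motor that carries chromosomes to the spindle equator (ENSG00000138778, chr4:103105806-103198409), was at 58.2, 52.8 and 63.99 CPM with vehicle at 20% O2, 16.3, 16.2 and 17.3 with vehicle at 1% O2, and 53.5, 53.1 and 45.4 with 32-134D. Its hypoxic vehicle libraries lay far below all others, at 0.285 of the mean at 20% O2, with a log2 fold change of -1.82 ± 0.10 (edgeR adjusted p = 1.15e-09). CENPF, a large protein of the outer kinetochore and nuclear matrix, was at 372, 458 and 481 CPM with vehicle at 20% O2, 212, 188 and 208 with vehicle at 1% O2, and 388, 403 and 339.5 with 32-134D. It fell, with a log2 fold change of -1.11 ± 0.10 (edgeR adjusted p = 2.1e-07), without overlap. CENPA, the histone of the centromere, averaged 15.4 ± 2.45 and 16.1 ± 0.41 CPM (SD, n = 3) and was not called.

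The proliferation marker MKI67, which coats mitotic chromosomes (ENSG00000148773, chr10:128096659-128126385), was at 259, 376 and 391 CPM with vehicle at 20% O2, 206, 182 and 188 with vehicle at 1% O2, and 305, 323 and 247 with 32-134D. The level at 20% O2 varied between libraries, with replicate 1 lowest, yet each lay above the hypoxic vehicle libraries, and the log2 fold change was -0.83 ± 0.13 (edgeR adjusted p = 8.81e-05). TOP2A, the topoisomerase that untangles sister chromatids, was at 550.5, 546 and 587 CPM with vehicle at 20% O2, 477, 426 and 438 with vehicle at 1% O2, and 542, 539 and 517 with 32-134D. Its hypoxic vehicle libraries were the lowest, with a log2 fold change of -0.33 ± 0.07 (edgeR adjusted p = 0.000879), under the fold threshold. MKI67 fell while CDK1 rose: the ratio of CDK1 to MKI67 counts (a pair chosen after its values were seen) was between 0.1495 and 0.301 at 20% O2 and between 0.729 and 0.806 in hypoxia.

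For cytokinesis, ANLN (anillin), the scaffold of the contractile ring, was at 224, 232 and 246 CPM with vehicle at 20% O2, 413, 388 and 395 with vehicle at 1% O2, and 276, 281 and 229.6 with 32-134D. It rose, with a log2 fold change of 0.77 ± 0.08 (edgeR adjusted p = 1.43e-06), a call kept in 8 of 12 settings that left no library out. ECT2, which activates RhoA at the division plane, had -0.33 ± 0.08 (edgeR adjusted p = 0.00292) and was not called. Among the spindle assembly and midzone genes, DLGAP5, which stabilizes the spindle, was at 63.4, 61.9 and 61.98 CPM with vehicle at 20% O2, 67.5, 61.7 and 63.7 with vehicle at 1% O2, and 60.6, 59.01 and 55.8 with 32-134D, with overlapping vehicle groups and a log2 fold change of 0.04 ± 0.07 (edgeR adjusted p = 0.636). TPX2 and HMMR passed the adjusted p alone, at 0.38 and 0.36.

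The transcription factors of this programme differed from each other. MYBL2 (B-MYB) was at 291, 299 and 287 CPM with vehicle at 20% O2, 469, 477 and 462 with vehicle at 1% O2, and 317, 317 and 259 with 32-134D. It rose in hypoxia, with no overlap and a log2 fold change of 0.68 ± 0.08 (edgeR adjusted p = 3.65e-06). The call held in 9 of 12 settings that left no library out. FOXM1 was at 220.5, 247 and 241 CPM with vehicle at 20% O2, 244, 246 and 245 with vehicle at 1% O2, and 226, 219.7 and 169.7 with 32-134D. Its vehicle groups overlapped, with a log2 fold change of 0.05 ± 0.09 (edgeR adjusted p = 0.66). Exons of ITFG2 on the opposite strand cover 15.9% of the exon bases of FOXM1, and the strand setting of the counting is not stated, so a share of its reads cannot be assigned. The same holds for 9.08% of the exon bases of CCNA2 (EXOSC9) and 8.78% of those of CDC25C (FAM53C), both called, while 10.2% of those of BUB1B are shared with the readthrough gene BUB1B-PAK6 on the same strand, which touches the ratio of BUB1 to BUB1B.

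**Figure D3:**
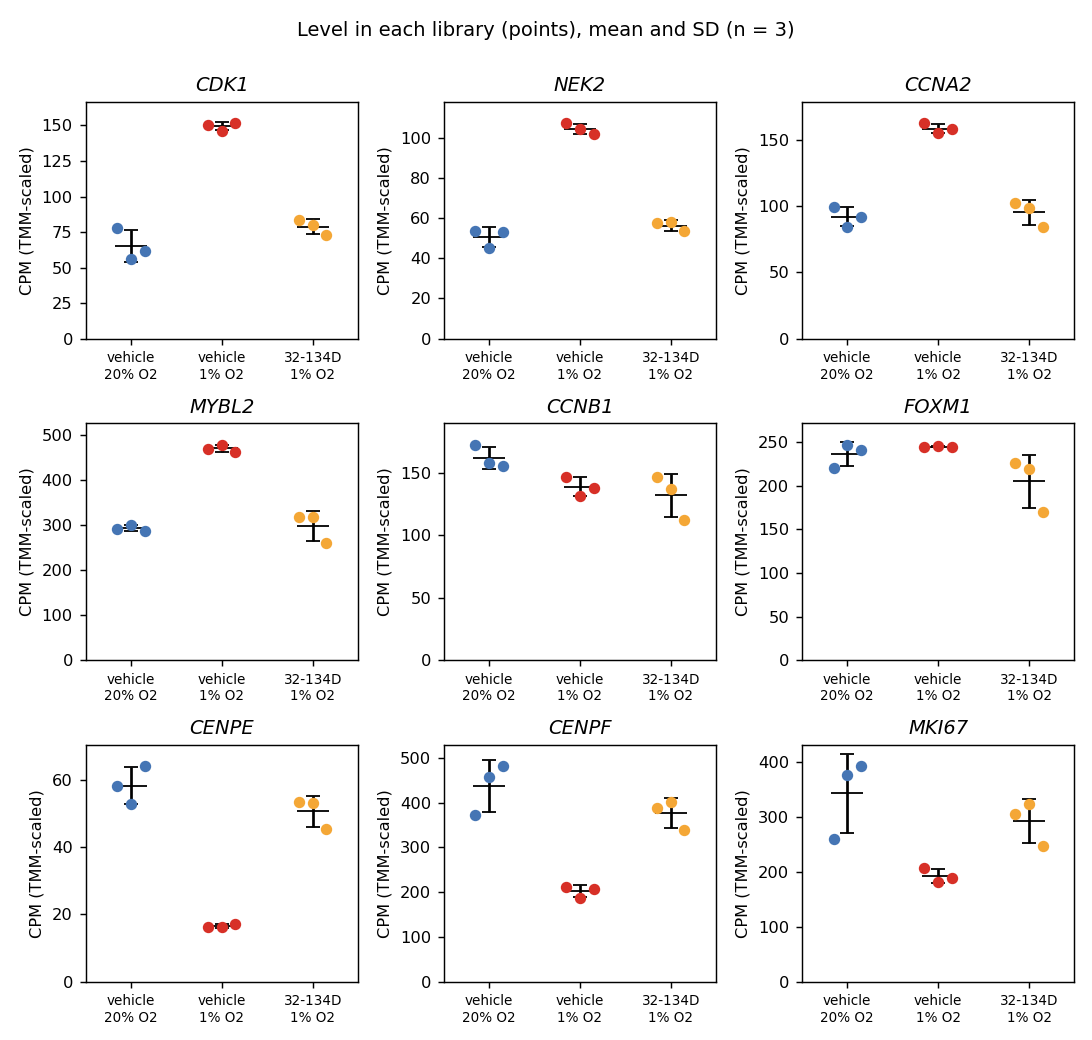
Level of 9 of the genes in each library (points, CPM after TMM scaling), with mean and SD (n = 3), on axes that start at 0. CDK1, NEK2, CCNA2 and MYBL2 were highest with vehicle at 1% O2, CENPE, CENPF and MKI67 were lowest there, and FOXM1 at 20% and 1% O2 overlapped.

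With 32-134D at 1% O2, 10 of the 40 genes were lower than with vehicle at 1% O2 (CDK1, NEK2, CCNA2, CDC25C, MAD2L1, CDCA8, MYBL2, UBE2C, ANLN and TTK) and 3 were higher (CENPE, CENPF and MKI67). Over all genes tested, 13.7% were called lower and 16.2% higher, so the share lowered, 25%, was above that background and the share raised, 7.5%, below it. The first of these did not hold in every setting: the share lowered was 12.5% against 14.1% of all genes without replicate 3 of 32-134D, 5% against 8.15% with total library size, 7.5% against 9.76% with upper quartile scaling, 10% against 13.7% where each library had 10 or more counts of a gene, and 5% against 10.47% with trends removed. By the adjusted p alone 22 were lower and 6 higher, against 25.5% and 21.9% of all genes. The median log2 fold change was -0.32, against -0.012 over all genes, and it stayed below 0 under every setting run, between -0.3463 and -0.1177. The number of lowered genes was less stable: 5 without replicate 3 of 32-134D (CDK1, CCNA2, NEK2, CDC25C and MAD2L1), with a median of -0.22, 7 by DESeq2, and 2 (CDK1 and NEK2) with total library size. With total library size 4 genes were higher, CDC25B besides the other 3, and 72.0% of the calls over all genes were higher, against 54.2% with TMM.

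CDK1 fell to 78.8 ± 5.46 CPM (SD, n = 3), against 65.3 ± 11.3 at 20% O2, with a log2 fold change of -0.92 ± 0.10 (edgeR adjusted p = 2.73e-06) against vehicle at 1% O2, and NEK2 did likewise, with -0.89 ± 0.08 (edgeR adjusted p = 3.83e-07). For both, the 3 libraries with 32-134D lay below the 3 with vehicle at 1% O2, and both calls held in every setting run at the 1.5-fold threshold. The log2 fold change of CCNA2 was -0.73 ± 0.08 (edgeR adjusted p = 4.87e-06). For CDC25C it was -0.68 ± 0.09 (edgeR adjusted p = 1.86e-05) and for MAD2L1 -0.67 ± 0.09 (edgeR adjusted p = 2.22e-05), with no overlap between the groups. Of 12 settings that left no library out, the call of CCNA2 held in 9, that of CDC25C in 8 and that of MAD2L1 in 6. CDCA8, which targets the passenger complex to centromeres, was at 55.2, 57.0 and 57.5 CPM with vehicle at 20% O2, 85.2, 85.01 and 80.5 with vehicle at 1% O2, and 59.8, 55.5 and 43.1 with 32-134D. It fell with 32-134D, with -0.66 ± 0.10 (edgeR adjusted p = 6.53e-05), but its call was lost without replicate 3, which was the lowest. The call of CDCA8 held in 6 of the 12 settings.

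CENPE rose with 32-134D, to 3.05 times the level with vehicle at 1% O2, with a log2 fold change of 1.61 ± 0.09 (edgeR adjusted p = 9.61e-09), and its groups did not overlap. CENPF rose as well, with 0.90 ± 0.10 (edgeR adjusted p = 3.23e-06), and both calls held in every setting run at the 1.5-fold threshold. MKI67 had 0.60 ± 0.13 (edgeR adjusted p = 0.00163), just above the fold threshold, and its call was lost when trends over length and GC content were removed or when replicate 2 of either group at 1% O2 was left out. MYBL2 fell, with -0.66 ± 0.08 (edgeR adjusted p = 8.27e-06). Its call was lost without replicate 3 of 32-134D and held in 7 of 12 settings that left no library out. UBE2C, ANLN and TTK, at -0.61, -0.60 and -0.60, lay close to the fold threshold of 0.585, and each kept its call in 2 of 12 settings that left no library out.

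Several genes at the centre of the programme were not called with 32-134D. The log2 fold change was -0.07 ± 0.09 (edgeR adjusted p = 0.549) for CCNB1, -0.26 ± 0.09 (edgeR adjusted p = 0.0369) for FOXM1 and 0.25 ± 0.07 (edgeR adjusted p = 0.00694) for TOP2A. CCNB2 had -0.42 ± 0.08 (edgeR adjusted p = 0.000656) and AURKA -0.43 ± 0.10 (edgeR adjusted p = 0.00226), past the adjusted p but not the fold threshold, whereas AURKB had -0.11 ± 0.08 (edgeR adjusted p = 0.32). BUB1 had -0.36 and BUB1B 0.10, and the ratio of BUB1 to BUB1B counts was 0.778 ± 0.027 with vehicle at 1% O2 and 0.567 ± 0.067 with 32-134D (SD, n = 3), without overlap. CDC25B passed the adjusted p alone, at 0.44.

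The smallest differences with 32-134D were those of KIF23, NUSAP1 and PTTG1. KIF23, a kinesin of the spindle midzone, was at 55.3, 53.2 and 60.1 CPM with vehicle at 20% O2, 58.7, 51.3 and 52.2 with vehicle at 1% O2, and 53.04, 56.02 and 48.4 with 32-134D. The groups overlapped, with a log2 fold change of -0.04 ± 0.08 (edgeR adjusted p = 0.708). NUSAP1, which bundles spindle microtubules, was at 2.08, 1.41 and 1.49 CPM with vehicle at 20% O2, 1.48, 1.37 and 1.62 with vehicle at 1% O2, and 1.70, 1.82 and 0.686 with 32-134D, too low and too uncertain in its annotation to resolve a difference (log2 fold change -0.06 ± 0.30 (edgeR adjusted p = 0.895)). PTTG1 had -0.06 ± 0.12 (edgeR adjusted p = 0.724).

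Against vehicle at 20% O2, none of the 40 genes was called with 32-134D at 1% O2 by edgeR or by DESeq2, at a background of 3% of all genes called higher and 0.516% lower. This comparison shares libraries with both others. By the edgeR adjusted p alone, 0 were higher and 1 was lower, AURKB at -0.40 ± 0.08 (edgeR adjusted p = 0.0067), against 7.81% and 2.44% of all genes. At an unadjusted p below 0.05, 1 was higher and 11 were lower by edgeR, and 2 and 8 by DESeq2. The share of all genes at that unadjusted p was not computed, so these counts have no background and no decrease is read from them. The median was -0.13, against -0.0028 over all genes, and -0.0645 without replicate 3 of 32-134D.

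Among the genes followed throughout, this difference was 0.26 ± 0.10 (edgeR adjusted p = 0.12) for CDK1, -0.30 ± 0.09 (edgeR adjusted p = 0.0571) for CCNB1 and -0.23 ± 0.13 (edgeR adjusted p = 0.319) for MKI67. It was -0.21 ± 0.09 (edgeR adjusted p = 0.17) for CENPE and -0.08 ± 0.07 (edgeR adjusted p = 0.556) for TOP2A. For FOXM1 it was -0.20 ± 0.09 (edgeR adjusted p = 0.207). The smallest were those of MYBL2 at 0.03 ± 0.08 (edgeR adjusted p = 0.894), CDC25C at -0.02 ± 0.09 (edgeR adjusted p = 0.919) and KIF11 at -0.02 ± 0.09 (edgeR adjusted p = 0.933). KIF11 was at 77.4, 79.1 and 81.2 CPM with vehicle at 20% O2, 116, 104 and 105 with vehicle at 1% O2, and 84.01, 82.8 and 67.6 with 32-134D, and the libraries at 20% O2 and with 32-134D overlapped. A p that misses the threshold does not show equal levels: the standard error of CDK1 in this comparison was 0.10 on the log2 scale.

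Transcript length moved with the hypoxia difference. The genes with the largest decreases had long exons in sum, 9444 bases in CENPE, 11690 in CENPF and 12807 in MKI67, on GENCODE version 29. The 11 genes of 5000 bases or more lay at a median of -0.06 on the log2 scale in hypoxia, against 0.19 in the 29 shorter genes. The 13860 genes with a mean of at least 1 CPM showed the same order, with medians of -0.036 and 0.23. Across genes, Spearman's rho of the hypoxia difference with length was -0.21 for the 40 and -0.17 for the 13860, and with 32-134D it was 0.34 and 0.23, as a description, since genes share libraries. ANLN and MAD2L1 are also over 5000 bases and were called higher as fitted, but not with trends over length and GC content removed (0.47 and 0.45).

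Once smooth trends of each library over length and GC content were taken out, the hypoxia log2 fold change was -1.97 for CENPE, -1.02 for CENPF and -0.45 for MKI67, the last of which was no longer called. CDK1 was at 0.75, NEK2 at 0.62 and MYBL2 at 0.61, and these 3 were the genes still called higher, while CCNB1 (-0.62), ECT2 (-0.69) and TOP2A (-0.62) were then called lower. The median of the 40 was then -0.068, against -0.073 over all genes, so the offset of 0.13 from all genes was no longer seen, whereas with 32-134D the median differed from that of all genes by -0.18. CDK1, NEK2, MYBL2, CENPE, CENPF and CDC25B kept their hypoxia calls in this fit. The part of transcript length in the remaining calls was not tested.

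**Figure D4:**
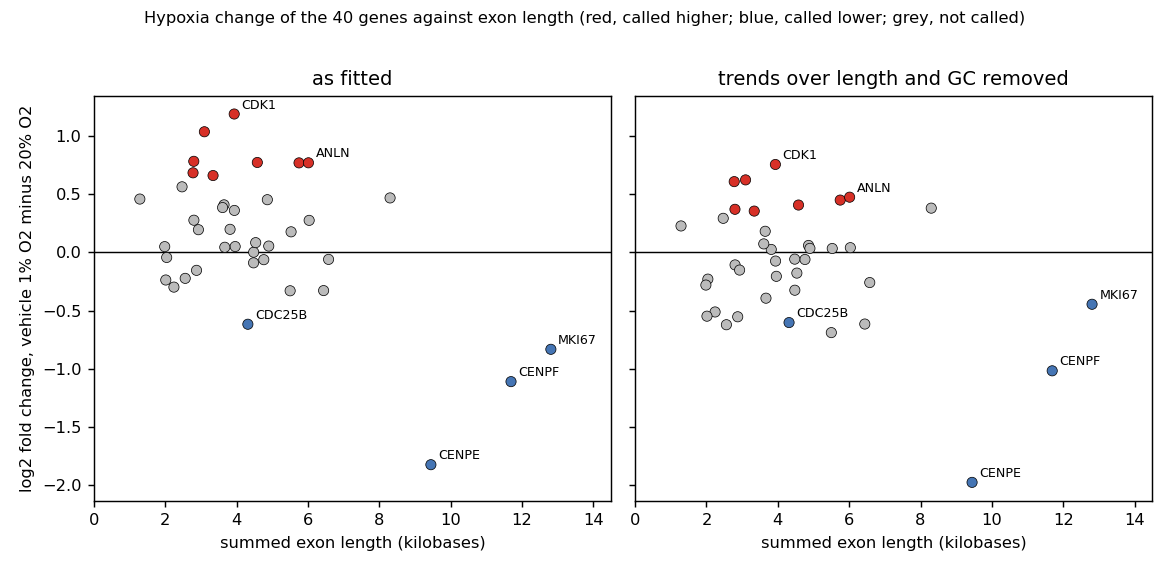
Hypoxia log2 fold change of each of the 40 genes against its summed exon length, as fitted (left) and after trends over length and GC content were removed (right), with colours by the call as fitted. CENPE, CENPF and MKI67 are the 3 longest genes, and CDK1 moved from 1.19 to 0.75 while CENPE moved from -1.82 to -1.97.

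Other genes of the same process were also called in both directions. Of 41 further G2/M genes, 13 rose and 6 fell in hypoxia, with their median at 0.24 on the log2 scale, and 13 fell and 3 rose with 32-134D, with a median of -0.38. As given above, 19.5% of all genes were called higher and 20.3% lower in hypoxia, and 16.2% and 13.7% with 32-134D. Counts of the 41 depended on the scaling. In hypoxia 8 were higher and 11 lower with total library size (median 0.028), and 5 and 8 with trends removed. With 32-134D 7 were lower and 5 higher with total library size, 5 and 5 with trends removed, and 10 and 4 without replicate 3. The calls over all genes shifted too, and their shares are the background for each list below. In hypoxia 13.6% were higher and 25.8% lower with total library size, and 16.6% and 21.4% with trends removed. With 32-134D 20.97% were higher and 8.15% lower with total library size, 17.1% and 10.47% with trends removed, and 16.65% and 14.1% without replicate 3. HMGB2, a chromatin protein, CKS1B, the small partner of CDK1, and HJURP, the chaperone of CENPA, rose most in hypoxia, by 1.61, 1.42 and 1.13, and with 32-134D had -1.12, -1.04 and -0.98. The helicase PIF1, the kinesin KIF14 and the spindle pole protein ASPM fell most, at -3.08, -1.60 and -1.57, and had 2.35, 1.44 and 1.37 with 32-134D. ASPM averaged 208 ± 22.6, 69.9 ± 6.95 and 180.4 ± 19.3 CPM in the 3 groups (SD, n = 3).

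Of 24 kinetochore genes, inner and outer, 8 rose and 1 fell in hypoxia (median 0.35). SKA1 at 1.48, MIS12 at 1.15 and CENPH at 1.00 led, and SPC24 had -0.62. CENPH, CENPN, CENPU and CENPW, among those raised, belong to the inner kinetochore. With 32-134D 7 fell and 0 rose (median -0.32), led by SKA1 at -1.07, CENPW at -0.83 and MIS12 at -0.81. In hypoxia 5 were higher and 3 lower (CENPI, SKA2 and SPC24) with total library size (median 0.14), and 4 and the same 3 with trends removed (median 0.051). With 32-134D 4 were lower and 1 higher (SKA2) with total library size, 2 (CENPW and SKA1) and 1 with trends removed, and 5 and 0 without replicate 3. Among 20 cohesin, condensin and separase genes, 5 rose and 2 fell in hypoxia. The cohesin protectors SGO1 and CDCA5 rose by 1.38 and 1.27 and the condensin subunit NCAPH by 1.14, while the cohesin subunits STAG1 and SMC1A had -0.78 and -0.65. With 32-134D 4 of these 20 fell and 1 rose, STAG1 at 0.74, and without replicate 3 NCAPG was no longer among those lowered. With total library size 3 were higher and 5 lower in hypoxia, and 3 and 3 with 32-134D. The median of the cohesin list, 0.037 in hypoxia, became -0.18 with total library size, and its median with 32-134D changed sign likewise, from -0.076 to 0.11.

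Of 14 subunits of the anaphase-promoting complex, 2 rose in hypoxia, CDC26 at 1.79 and CDC23 at 0.62, and 4 fell, led by ANAPC15 at -1.57, ANAPC4 at -0.87 and ANAPC2 at -0.75. With 32-134D 2 rose, ANAPC15 at 1.07 and ANAPC1 at 0.77, and 2 fell, CDC26 at -1.25 and ANAPC11 at -0.60, while without replicate 3 ANAPC4 was also higher and ANAPC11 was not called. With total library size 1 was higher and 5 lower in hypoxia, and 4 and 1 with 32-134D. Of 10 tubulin and stathmin genes, 4 rose and 0 fell in hypoxia, led by TUBB2B at 1.92, TUBB6 at 1.38 and TUBA1A at 1.30, and 4 fell and 0 rose with 32-134D, led by TUBB6 at -1.21, TUBB2B at -1.01 and TUBB2A at -0.97. Tubulin genes share near-identical sequence, so their single counts are uncertain, and the median of that list, 0.19 in hypoxia, was -0.021 with total library size.

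The regulators of mitotic entry, most of them inhibitors of CDK1 and other brakes, had a higher hypoxia median than any other cell cycle list described here. Of 15, 9 rose and 2 fell in hypoxia, with a median of 1.09, and 9 fell and 1 rose with 32-134D, with a median of -0.85. MASTL, ENSA and FBXO5 in this list are not brakes: MASTL and ENSA promote mitotic entry and FBXO5 restrains the anaphase-promoting complex. MASTL and FBXO5 were among the 9 raised in hypoxia and the 9 lowered with 32-134D. The GADD45 stress proteins, which bind CDK1, led the list: GADD45A averaged 16.99 ± 2.30, 184 ± 31.8 and 52.9 ± 1.23 CPM (SD, n = 3) in the 3 groups, with log2 fold changes of 3.43 ± 0.13 (edgeR adjusted p = 4.78e-11) in hypoxia and -1.80 ± 0.12 (edgeR adjusted p = 2.26e-08) with 32-134D. GADD45B averaged 34.1 ± 3.65, 179.9 ± 24.3 and 56.7 ± 3.05 CPM, and GADD45G, almost undetected at 20% O2, 0.327 ± 0.245, 13.1 ± 2.03 and 3.06 ± 0.557 CPM. CDKN1C at -0.90 and SFN at -0.73 were the 2 that fell in hypoxia. Against vehicle at 20% O2, 5 of the 15 (33.3%) were still higher with 32-134D, against 3% of all genes. Of the 12 hypoxia-inducible control genes, 10 were still higher as well. Among the 5 were GADD45A at 1.64 ± 0.13 (edgeR adjusted p = 1.49e-06) and WEE1, the kinase that inactivates CDK1, at 0.81 ± 0.09 (edgeR adjusted p = 4.71e-05). WEE1 averaged 135 ± 8.52, 544 ± 32.1 and 237 ± 28.6 CPM (SD, n = 3).

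Among 21 E2F, MuvB and NF-Y factors, 6 rose and 1 fell in hypoxia (median 0.32), with the MuvB subunits LIN54 at 1.31 and LIN9 at 1.17, the NF-Y subunit NFYB at 0.66, and RBL2 (p130) at -0.71, and with 32-134D 1 was called, LIN54 at -0.83. The balance of the hypoxia calls turned in settings where the share of all genes called higher also dropped. With total library size 2 were higher (LIN54 and LIN9) and 4 lower (RBBP4, RBL2, TFDP1 and TFDP2). With trends removed the same 2 were higher and 3 lower (E2F5, RBL2 and TFDP1). With 32-134D, LIN37 and LIN9 were also lower without replicate 3, and besides LIN54 3 genes were higher with total library size (E2F5, RBBP4 and RBL2) or with trends removed (E2F5, RBL2 and TFDP1). Of 42 DNA replication and G1/S genes, 13 rose and 5 fell in hypoxia (median 0.41) and 11 fell and 2 rose with 32-134D (median -0.30). With total library size 9 were higher and 8 lower in hypoxia (median 0.20) and 6 lower and 5 higher with 32-134D (median -0.11). With trends removed, 9 were higher and 4 lower in hypoxia and 6 lower and 3 higher with 32-134D, and without replicate 3 10 were lower and 2 higher. CDT1, which licenses replication origins, GINS3, a part of the replicative helicase, and GMNN, which inhibits CDT1, had 1.67, 1.47 and 1.38 in hypoxia. The polymerase subunits POLE, POLD1 and POLA1 had -1.14, -0.69 and -0.67. The summed counts of the 40 G2/M genes over those of the replication list, a ratio within each library, were 1.20 ± 0.03 (SD, n = 3) with vehicle at 20% O2, 1.02 ± 0.02 with vehicle at 1% O2 and 1.08 ± 0.05 with 32-134D. The hypoxic vehicle libraries lay below those at 20% O2, and replicate 3 of 32-134D, at 1.03, lay within the range of the hypoxic vehicle libraries, 1.00 to 1.05. After TMM scaling the 40 genes summed to 5394, 5727 and 5010 CPM on average in the 3 groups, and the replication list to 4504, 5602 and 4634. Both sums were therefore higher in hypoxia. CENPF, MKI67 and TOP2A, abundant genes that were lower in hypoxia, weigh on the sum of the 40, and the ratio without them was not computed.

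**Figure D5:**
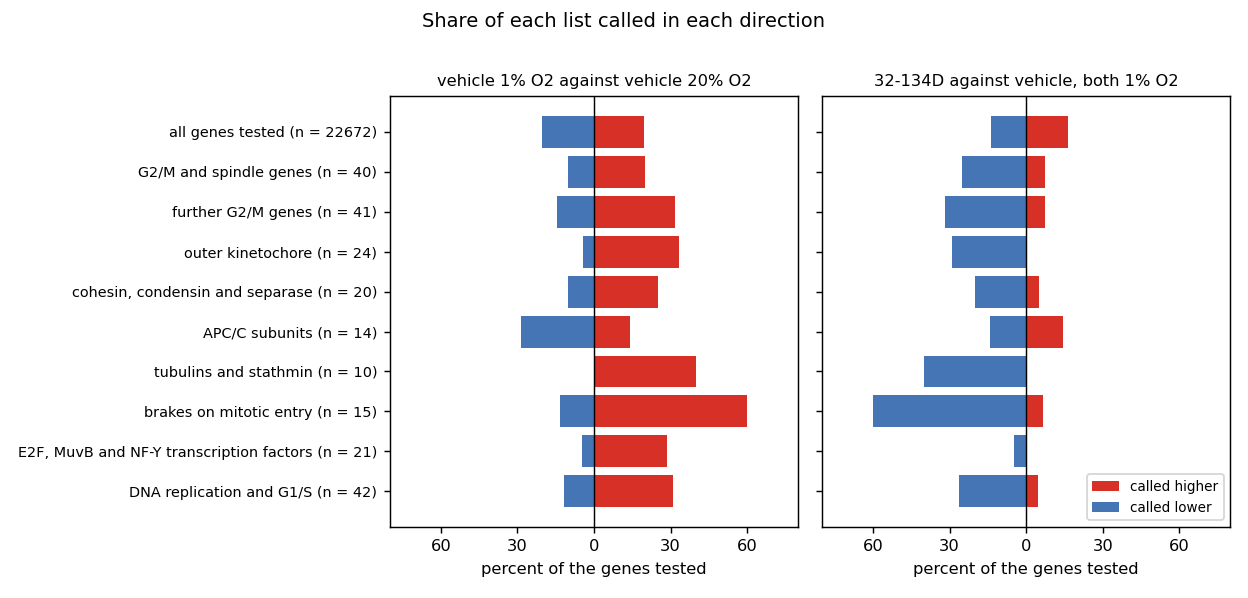
Percent of each list called higher (red) or lower (blue) in hypoxia (left) and with 32-134D (right), beside all genes tested. The list labelled outer kinetochore also holds inner kinetochore genes. Among the regulators of mitotic entry (labelled brakes), 60% were called higher in hypoxia and 60% lower with 32-134D. Among the 40 G2/M and spindle genes, 20% were called higher in hypoxia and 25% lower with 32-134D.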

How the data were processed

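RNA-seq libraries of Hep3B cells in 3 groups of 3 were analysed. The authors deposited 1 table of raw read counts per Ensembl gene (release 100, GRCh38), made with FastQC, Bbduk, STAR and featureCounts, and tool versions and the strand setting are not given in the sources used here. Without the strand setting, it is not known how reads in overlapping antisense exons were counted. Its 9 columns were mapped by sample name and 0 were left unmapped. The study's own test was DESeq2. Here, edgeR 4.0.16 in R 4.3.3 fitted the 9 libraries together by quasi-likelihood, with TMM scaling, on 22672 genes with counts summing to at least 10. Total counts ran from 6013980 to 40549699 per library, and the common biological coefficient of variation was 10.5%. RPKM used GENCODE version 29 exon lengths, known for all 40 genes. Promoters were RefSeq sequences on GRCh38.p14.

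The procedure was tested on simulated counts. The genes and the other lists were chosen with earlier results of these data known. Values per library are given for CDK1, CCNB1, MKI67, TOP2A, FOXM1 and MYBL2, for the 8 called genes with the largest and the 3 genes with the smallest differences per comparison, and for 4 paralog pairs. Up to 3 genes per direction are named from other lists. Alternatives were DESeq2 1.42.0, other scalings, filters and fold thresholds, pairs of groups, thinning, protein-coding genes, removed trends, leaving out each library and a replicate block.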

Additional observations from a re-analysis of the deposited data

How the results depend on the processing

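In hypoxia, the 8 higher G2/M genes became 2 with total library size, 3 with upper quartile scaling, 3 with trends over length and GC content removed, 3 with a replicate block and trends removed, 2 above 2-fold and 17 with no fold threshold. The 4 lower became 2 and 7 under those fold thresholds. The median of 0.13 changed sign with total library size (-0.083), upper quartile (-0.063), trends removed (-0.068) and the replicate block with trends removed (-0.065). Relative to all genes, it was 0.13 in the first 2 of these and 0.0054 and 0.0035 in the last 2. With 32-134D, the 3 higher genes became 1 above 2-fold and 6 with no fold threshold. The 10 lower became 2 with total library size, 3 with upper quartile, 4 with at least 10 counts in every library, 5 after thinning, 2 with trends removed, 2 with the replicate block and trends removed, 0 above 2-fold, 22 with no fold threshold, and 5 to 11 with 1 library left out (5 without replicate 3 of 32-134D). Its median of -0.32 became -0.13, -0.20, -0.12 and -0.12 with total library size, upper quartile, trends removed and block with trends removed, and ran from -0.35 to -0.22 with 1 library left out. Against 20% O2, 1 gene was lower with no fold threshold. The cause of these shifts was not tested.

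With the replicate block alone, 8 genes were higher and 4 lower in hypoxia, 3 higher and 10 lower with 32-134D, and the medians were 0.127, -0.321 and -0.135, so no count changed. The block rests on a shared number only, since deviations of same-numbered libraries correlated between -0.0322 and 0.0052. No single gene reversed its direction with a call in these alternatives. The smallest library, 6013980 counts, limits low genes such as NUSAP1.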
